A study of Schmidtea mediterranea with 100 samples.

Results

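Among the planarian transcripts known by identifier alone, 138 were at least 2-fold more abundant in the RNA-low gate than in each of 3 other gates of cells sorted by DNA and RNA content. They were chosen by level. In the bulk table, with reads set to a total of 1000000 in each column (CPM), a row without a gene name was taken when it reached 50 CPM in RNA-low and at least 2 times its level in each of G1, S/G2/M and PM. Rows with reads in 90 or more of the 96 single cells were left out. Of 67386 rows, 67221 carried no gene name, 3198 of these reached 50 CPM in RNA-low under the cell limit, and 138 of the 3198 (4.32%) passed the fold. The choice fixes that RNA-low was highest, so its excess over the other gates is given below as a description and is no finding. The levels in G1, S/G2/M and PM entered the rule too, since each was capped at 50% of RNA-low. Their order is therefore also a description, and shares over all 3198, most of which are above that cap in G1, are printed beside it without being those of transcripts chosen alike. Of the single-cell readout only the limit of 90 cells was used.

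The cells came from whole animals of the asexual CIW4 strain of Schmidtea mediterranea, a clonal line. Animals were dissociated by douncing, and the cells were sorted after staining with Hoechst, a DNA dye, and pyronin Y, an RNA stain. Samples were bulk libraries of the RNA-low gate and of the gates called G1, S/G2/M and PM, 1 library for each gate, and 96 Smart-seq2 libraries of single RNA-low cells. All groups shared the strain and both stains, and the labels name no age, pool of animals or plate and do not spell out PM, so the 96 cells count as 1 sample. With 1 library per gate there was no replicate check, and no p-value is given.

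Neoblasts are the dividing stem cells of adult planarians and the source of every other cell type. Resting cells usually hold less RNA than cycling cells of the same DNA content, and pyronin Y, which binds RNA, is used with a DNA dye to separate them from cells in G1. The title of the study names slow-cycling neoblasts as its subject. The files pair none of the 138 identifiers with a gene, so no function can be given for them, and no sequences were at hand to show.

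The bulk libraries held 47338591 to 74968402 reads. The share of ribosomal RNA was 16.9% in RNA-low and between 16.8% (G1) and 35.1% (PM) in the other gates. The most frequent read count above the low end was 5 for RNA-low, 10 for G1, 22 for S/G2/M and 26 for PM, and dividing the reads by it gave the estimated number of starting fragments. Intervals printed here are exact 95% intervals on these estimated fragments and cover counting error only. The labels were checked against markers. The summed neoblast genes (piwi-1, piwi-2, piwi-3 and bruli) stood at 7704 CPM in RNA-low, and at 6295 CPM in G1, 9031 CPM in S/G2/M and 3386 CPM in PM. The summed cell division genes PCNA, mcm2 and CyclinB2 stood at 92.5 CPM in RNA-low, and at 267 CPM in G1, 790 CPM in S/G2/M and 79.3 CPM in PM. The 18 early epidermal progeny genes summed to 1926 CPM in RNA-low, the lowest of the gates, against 32610 CPM for G1, 5645 CPM for S/G2/M and 20095 CPM for PM. In bulk, more cells of a type and more of the transcript per cell cannot be told apart, and CPM are shares of a library and not amounts per cell.

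The 138 transcripts together took 2.87% of all RNA-low reads, against 0.932% for G1, 0.620% for S/G2/M and 0.787% for PM. Their median level was 87.7 CPM in RNA-low, against 33.5 CPM in G1, 16.5 CPM in S/G2/M and 26.9 CPM in PM. Most were of moderate abundance. In RNA-low, 79 were between 50 and 100 CPM, 40 between 100 and 300 CPM, and 19 were at 300 CPM or more. G1 was the gate that limited the set: of the 3198, RNA-low was at least 2-fold above G1 for 5.32%, above S/G2/M for 30.5% and above PM for 21.6%. The median excess of RNA-low over the highest of the other gates was 2.48-fold, with quartiles of 2.24- and 2.93-fold. At least 3-fold was reached by 31 transcripts, 4-fold by 10 and 10-fold by 1. The rule put every ratio at 2-fold or more, so intervals above equality for all 138 against each other gate are no finding. The interval lay above 2-fold against each gate in 124 when computed on reads and in 85 on estimated fragments. These counts make no allowance for the choice, and reads copied from the same fragment are not independent.

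**Figure D1:**
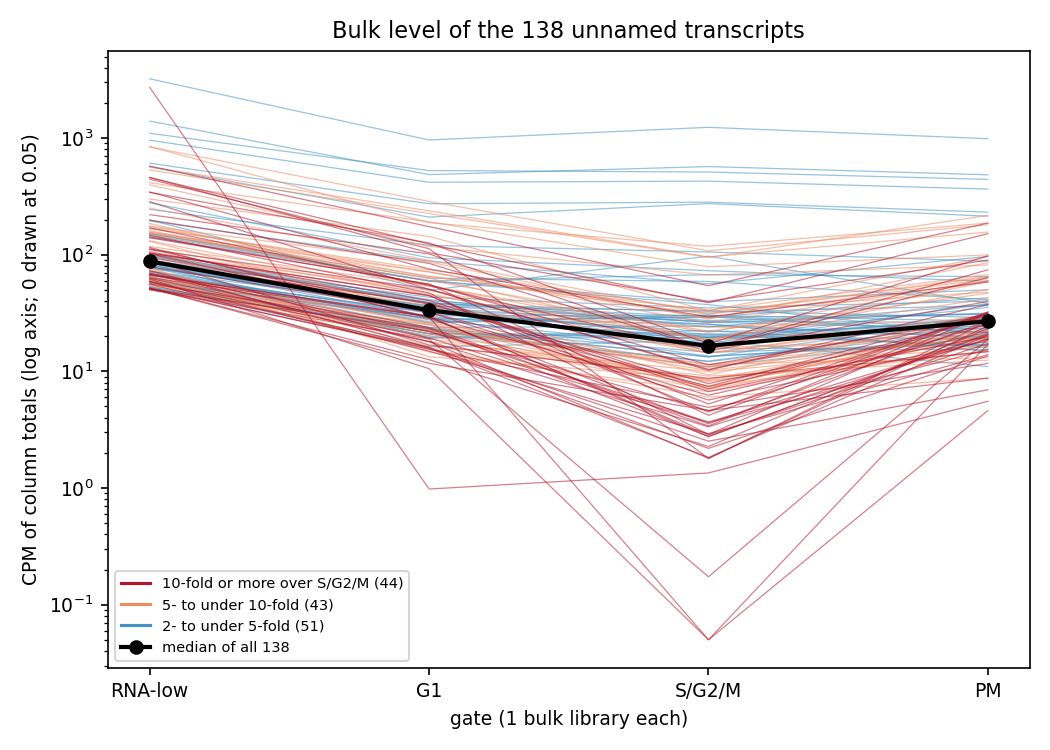
Bulk level of each of the 138 unnamed transcripts in each gate's bulk library, in CPM of column totals on a log axis, with lines coloured by the excess of RNA-low over S/G2/M and the median in black. The median runs from 87.7 CPM in RNA-low through 33.5 in G1 to its lowest point of 16.5 in S/G2/M, and stands at 26.9 in PM; 2 transcripts with 0 reads in S/G2/M are drawn at 0.05.

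The gate farthest below RNA-low was S/G2/M, the gate of replicating and dividing cells. These transcripts had a median S/G2/M level of 15.3% of that in RNA-low, against 38.2% for G1 and 30.8% for PM. S/G2/M was the lowest of the 3 other gates for 108 of the 138 (78.3%), against 43.5% of all 3198 unnamed transcripts tested. PM was the lowest for 24 (17.4%, against 55.4%) and G1 for 6 (4.35%, against 1.09%). G1 was at least 2-fold above S/G2/M for 80 of them (58.0%), where 21.8% of the 3198 passed. PM was at least 2-fold above S/G2/M for 68 (49.3%), where 12.8% passed. Beyond counting error, G1 was above S/G2/M for 111 of the 138 (54.3% of the 3198) and below it for 4 (25.2%). Such counts depend on the level of a transcript as well as on its ratio. The neuron markers COE and elav-2 had the same order of gates, with a summed level of 144 CPM in RNA-low and 52.0, 15.5 and 37.9 CPM in G1, S/G2/M and PM. These are the whole neuron list, chosen with earlier results of these data known. Both genes themselves pass the level and fold thresholds of the rule, so their likeness to the set is partly fixed by those thresholds. The intestine markers porcnA and porcn-B summed to 142 CPM in RNA-low and 128, 145 and 103 CPM in those gates. The muscle gene titin stood at 4.77 CPM in RNA-low and at 3.16, 0.454 and 12.8 CPM in G1, S/G2/M and PM. In the same order, the epidermal gene vim-1 stood at 2.09 CPM and at 18.1, 9.40 and 112 CPM. NXK2.2_Dth-1, a marker of gamma neoblasts, stood at 4.69 CPM in RNA-low and at 23.2, 21.8 and 13.1 CPM in the others. Reads of COE or elav-2 were found in 7 of the 79 single cells kept. The part of neuronal RNA in the result was not tested.

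Scaling changes how many transcripts lay on each side. Median-of-ratios scaling, which moved every ratio of G1 over S/G2/M by -0.48 on the log2 scale, left 52 of the 138 at 2-fold or more of G1 over S/G2/M, where 10.4% of the 3198 passed. S/G2/M was the lowest of the 3 gates for 95 of the 138 under that scaling and for 30.7% of the 3198.

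G1 and PM differed less. Beyond counting error, G1 was above PM for 52 of the 138 (74.3% of the 3198) and below it for 5 (2.35%). The 138 had lower median levels than the 3198, at 33.5 against 87.5 CPM in G1 and 26.9 against 62.9 CPM in PM. Intervals widen at lower counts, so these counts depend on level as well as on ratio. The median ratio of G1 over PM was 1.24 for the 138 and 1.42 for all 3198. G1 was at least 2-fold above PM for 4 (2.90%, against 5.25%) and PM at least 2-fold above G1 for 1 (0.725%, against 0.532%), which was SmedASXL_074105. S/G2/M was at least 2-fold above G1 for 0 (against 1.38%) and above PM for 1, SmedASXL_013552 (0.725%, against 13.4%). G1 was the highest of the 3 other gates for 99 (71.7%, against 60.0% of the 3198), PM for 25 (18.1%, against 5.94%) and S/G2/M for 14 (10.1%, against 34.1%). The order of G1 and PM rests on the scaling. With ribosomal RNA left out of the totals, which raised PM over G1 by 0.36 on the log2 scale, G1 was the highest for 59 (38.1% of the 3198) and PM for 68 (24.8%).

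**Figure D2:**
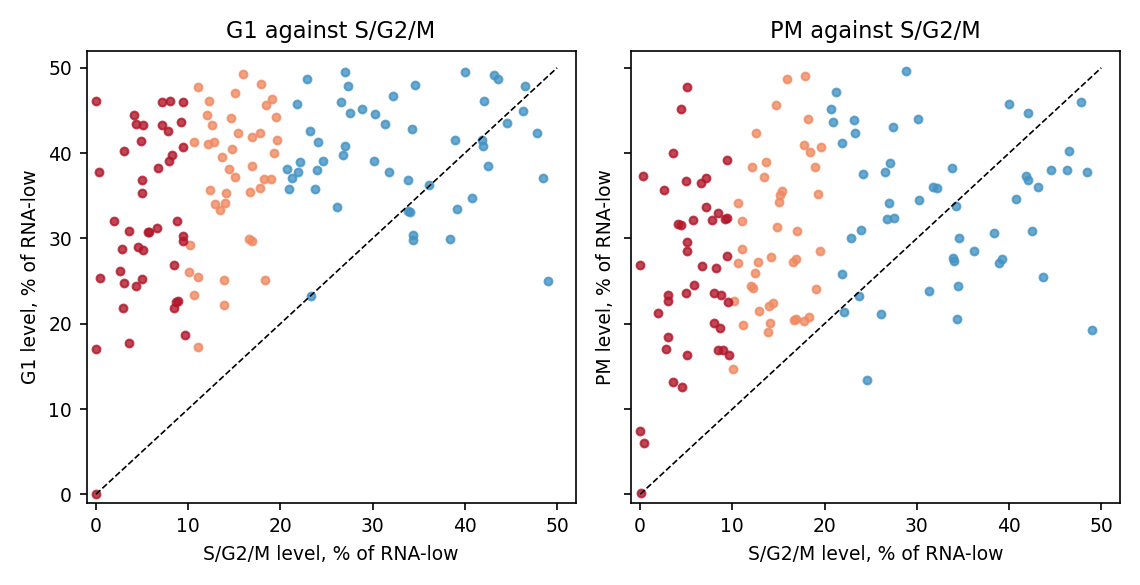
Level of each of the 138 transcripts in G1 (left) and PM (right) against S/G2/M, each as a percentage of its RNA-low level, with the same colours as in the plot of levels by gate. Points above the dashed line of equality, 121 for G1 and 111 for PM, are transcripts with less in S/G2/M; the edge at 50% is the threshold of the rule.

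The transcripts differed most among themselves in how far S/G2/M lay below RNA-low, and by quartiles the 3198 also varied most in S/G2/M. Over the 3198 the S/G2/M quartiles were 44.0% and 114% of RNA-low. Those of G1 were 76.1% and 108%, and those of PM 52.0% and 78.3%. RNA-low exceeded S/G2/M by 10-fold or more for 44 transcripts, by 5- to under 10-fold for 43 and by 2- to under 5-fold for 51. Of the 3198, 30.5% were at 2-fold or more over S/G2/M. The shares at 10-fold and at 5-fold were not counted, so the class sizes only describe the set. The 44 summed to 8885 CPM in RNA-low, of which SmedASXL_074105 gave 2718 CPM, against 1929 CPM in G1, 381 CPM in S/G2/M and 1537 CPM in PM. The 51 summed to 12053 CPM in RNA-low, against 4552 CPM in G1, 4655 CPM in S/G2/M and 4110 CPM in PM. The medians over that class were a G1 level of 40.8%, an S/G2/M level of 32.2% and a PM level of 34.6% of that in RNA-low, and SmedASXL_014883 alone gave 1236 of the 4655 CPM in S/G2/M. The classes were formed on S/G2/M, so their S/G2/M levels are set by that choice.

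The first class included 2 transcripts with no reads in S/G2/M, SmedASXL_007831 and SmedASXL_014830. Their ratios over S/G2/M are lower bounds and cannot be ranked against 2017-fold for SmedASXL_074105 and 248-fold for SmedASXL_018523. SmedASXL_007831 stood at 61.7 CPM in RNA-low, and at 10.5 CPM in G1, 0 CPM in S/G2/M and 4.61 CPM in PM. With its S/G2/M count of 0 set to 3 fragments it was at least 70.1-fold higher in RNA-low than in S/G2/M, and the lower end of its interval was 56.9-fold. It was 5.86-fold above G1 (interval 4.47 to 7.82) and 13.4-fold above PM (7.10 to 32.7). SmedASXL_014830 stood at 63.6 CPM in RNA-low, and at 29.3 CPM in G1, 0 CPM in S/G2/M and 17.1 CPM in PM, at least 72.2-fold higher in RNA-low than in S/G2/M at that setting, with a lower end of 58.6-fold. The excess of RNA-low over G1 was among the largest of the set for the first and only 2.17-fold for the second.

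SmedASXL_018523 was an abundant transcript of that class, at 444 CPM in RNA-low, and at 113 CPM in G1, 1.79 CPM in S/G2/M and 26.8 CPM in PM. Its excess of RNA-low was 3.94-fold over G1 (interval 3.62 to 4.29), 248-fold over S/G2/M (116 to 687) and 16.6-fold over PM (12.5 to 22.3). Of the 138, it also had the largest excess of G1 over the next of the 3 other gates, at 4.20-fold. SmedASXL_014879 had the second largest, 2.31-fold, at 55.5 CPM in RNA-low, and at 16.1 CPM in G1, 2.52 CPM in S/G2/M and 6.95 CPM in PM. These transcripts were graded from RNA-low through G1 and PM to S/G2/M.

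Large excesses over every gate were rare. After SmedASXL_074105, described below, and SmedASXL_007831 came SmedASXL_017609, at 285 CPM in RNA-low, and at 50.4 CPM in G1, 10.2 CPM in S/G2/M and 37.4 CPM in PM. It exceeded the highest other gate, G1, 5.64-fold (interval 4.98 to 6.40). SmedASXL_016663 followed at 90.2 CPM in RNA-low, and at 16.8 CPM in G1, 8.72 CPM in S/G2/M and 14.7 CPM in PM, 5.36-fold above G1 (4.32 to 6.71). These 4 were the only ones of the 138 at 5-fold or more over each gate.

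Of the 4 transcripts highest in RNA-low, all but SmedASXL_074105 belonged to the class with the smallest excess over S/G2/M. SmedASXL_014883 was the highest, at 3222 CPM in RNA-low, and at 962 CPM in G1, 1236 CPM in S/G2/M and 988 CPM in PM. Its smallest excess was over S/G2/M, 2.61-fold (interval 2.52 to 2.69). SmedASXL_006919 stood at 1399 CPM in RNA-low, and at 486 CPM in G1, 570 CPM in S/G2/M and 484 CPM in PM. SmedASXL_007925 stood at 1099 CPM in RNA-low, and at 527 CPM in G1, 511 CPM in S/G2/M and 442 CPM in PM, only 2.09-fold above G1 (2.00 to 2.17). All 3 were abundant in every gate.

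For 14 transcripts S/G2/M was the highest of the 3 other gates, mostly by little, with a median of 1.12-fold over the next. The widest was SmedASXL_013552, at 198 CPM in RNA-low, and at 49.6 CPM in G1, 97.2 CPM in S/G2/M and 38.2 CPM in PM, where S/G2/M was 1.96-fold above G1. SmedASXL_018639 was next, at 567 CPM in RNA-low, and at 210 CPM in G1, 274 CPM in S/G2/M and 214 CPM in PM. Both were close to the fold threshold in S/G2/M, at 2.04- and 2.06-fold below RNA-low. Among the 25 with PM highest, apart from SmedASXL_074105 the widest was SmedASXL_010947, at 51.6 CPM in RNA-low, and at 12.6 CPM in G1, 2.27 CPM in S/G2/M and 23.3 CPM in PM.

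SmedASXL_074105 stood apart from the other 137. It had 2718 CPM in RNA-low, against 0.980 CPM in G1, 1.35 CPM in S/G2/M and 5.53 CPM in PM, 491-fold above PM (interval 269 to 1032). It made up 9.48% of the RNA-low sum of the 138, and without it the RNA-low sum was 2.78 times that of G1, in place of 3.08 times. The next largest excess over all gates was 5.86-fold. In the single cells it had no such level. It was read in 25 of the 96 cells, in 7 of them by 1 read, and its level in the pooled cells was 0.339% of that in the RNA-low bulk library.

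In its bulk pattern SmedASXL_074105 was like some of the 13 rows that passed the level and fold thresholds but were left out for reads in 90 or more cells. SmedASXL_068163, SmedASXL_068238 and SmedASXL_071005 stood at 2721, 2386 and 1767 CPM in RNA-low and at 14.5 CPM or less in each other gate. SmedASXL_067286 and SmedASXL_072922 had no reads in G1, S/G2/M or PM. These 5 were picked from the 13 after their values had been seen. Of the 12 left-out rows whose identifier begins SmedASXL_, 1 has a number of 20000 or below, against 134 of the 138 (97.1%) and 3081 of all 3198 tested (96.3%). The 4 exceptions among the 138 were SmedASXL_074105, SmedASXL_065416, SmedASXL_079276 and SmedASXL_041603. What the numbering stands for is not given in the sources used here.

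At the level threshold, SmedASXL_012940 and SmedASXL_016558 were just inside, both at 50.1 CPM in RNA-low, and SmedASXL_000914 (49.4 CPM) and SmedASXL_012694 (49.3 CPM) just outside. At the fold threshold, SmedASXL_013493 (2.016-fold) and SmedASXL_013363 (2.021-fold) were just inside, and SmedASXL_019697 and SmedASXL_016081 (both 2.00-fold when rounded, below the threshold) just outside. At the cell limit there was a gap. SmedASXL_006919, read in 82 cells, and SmedASXL_014883 and SmedASXL_011146, read in 62 each, were inside, and SmedASXL_067286 with 90 and SmedASXL_014881 with 94 cells outside.

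Of the rows with a gene name, 4 passed the same level and fold thresholds, out of 46 at 50 CPM or more in RNA-low with ribosomal RNA left out (8.70%). COE, a transcription factor gene of neural fate, stood at 78.8 CPM in RNA-low, and at 21.7 CPM in G1, 6.43 CPM in S/G2/M and 17.3 CPM in PM. The excess of RNA-low was 3.62-fold over G1 (interval 2.98 to 4.41) and 12.3-fold over S/G2/M (8.01 to 19.6). The gene elav-2, which encodes a neuronal RNA-binding protein, stood at 65.7 CPM in RNA-low, and at 30.3 CPM in G1, 9.04 CPM in S/G2/M and 20.5 CPM in PM.

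The remaining named genes of this pattern were hb-2 and innexin-1. The gene hb-2 stood at 54.1 CPM in RNA-low, and at 11.1 CPM in G1, 6.82 CPM in S/G2/M and 16.4 CPM in PM. The gap junction gene innexin-1 stood at 61.6 CPM in RNA-low, and at 16.6 CPM in G1, 9.23 CPM in S/G2/M and 16.8 CPM in PM. In all 4 named genes S/G2/M was the lowest gate, as it was for 29 of the 46 (63.0%). Reads of the 4 were rare in the single cells, with COE in 1, elav-2 in 6, hb-2 in 5 and innexin-1 in 10 of the 79 kept cells, so they give little ground to compare cells.

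Single RNA-low cells showed most of these transcripts in a minority of cells. Cells with at least 500 detected transcripts were kept, which left 79 of 96. Reads without molecular identifiers are not independent molecules. Of the 138, 137 were listed in the single-cell table, and SmedASXL_006584, at 170 CPM in RNA-low bulk, was not. The median transcript was read in 10.5 kept cells, 69 were read in 10 or fewer and 12 in 40 or more. Over the other 3060 unnamed transcripts tested, the median was 10 cells.

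Detection followed the bulk level and was about the same as for other unnamed transcripts of like level. At 50 to 100 CPM the median was 7 kept cells for the 79 transcripts of this set and 7 for 1629 others. At 100 to 300 CPM it was 12 for 40 and 13 for 1076 others, and at 300 CPM or more it was 31 for 19 and 33 for 355 others. The transcripts highest in RNA-low bulk were therefore not read in a larger share of RNA-low cells than others of their level.

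**Figure D3:**
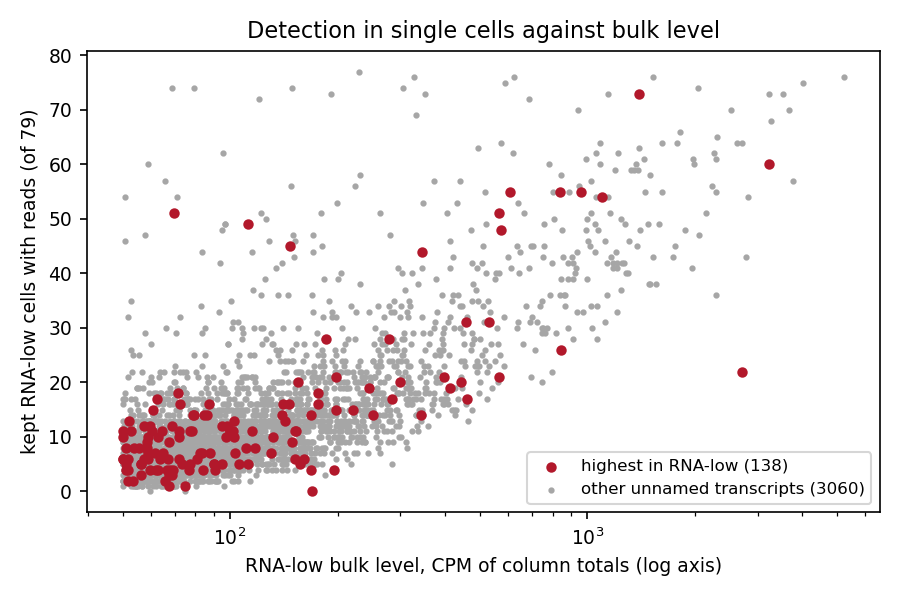
Number of the 79 kept RNA-low cells with reads of a transcript (vertical axis) against its RNA-low bulk level in CPM on a log axis, for the 138 transcripts (red) and the 3060 other unnamed transcripts tested (grey). Red and grey points overlap, with medians of 7 and 7 cells in the lowest band and 31 and 33 in the highest; the red point at 2718 CPM and 22 cells is SmedASXL_074105.

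The widest detection was that of SmedASXL_006919, in 73 of 79 kept cells (92.4%, exact interval 84.2 to 97.2), and the median such cell held 111 reads. SmedASXL_014883 was read in 60 (75.9%, 65.0 to 84.9), with a median of 247 reads. SmedASXL_015533, at 839 CPM in RNA-low, and at 286 CPM in G1, 108 CPM in S/G2/M and 181 CPM in PM, was read in 55 (69.6%, 58.2 to 79.5). SmedASXL_007925 was read in 54. SmedASXL_065416, at only 69.8 CPM in RNA-low bulk, was read in 51, as was SmedASXL_018639. These 6 were among the 12 read in 40 or more kept cells, as were SmedASXL_016037 and SmedASXL_016038, read in 55 each.

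SmedASXL_011146 was read in 49 kept cells (62.0%, 50.4 to 72.7) although its RNA-low bulk level was only 112 CPM, with 32.1 CPM in G1, 5.68 CPM in S/G2/M and 18.3 CPM in PM. It was also read in 13 of the 17 cells left out for few transcripts. SmedASXL_002407, at 147 CPM in RNA-low, and at 47.0 CPM in G1, 2.88 CPM in S/G2/M and 31.2 CPM in PM, was read in 45 kept cells, with a median of only 6 reads, and in 11 of the 17. In contrast, SmedASXL_014883 was read in 2 of the 17 and SmedASXL_018523 in 0. In all, 42 of the 138 had reads in at least 1 of the 17 cells and 7 in at least 5. The same shares over the other unnamed transcripts were not counted, so whether these counts are particular to the set is not known. The part of these reads in the wide detection of SmedASXL_011146 and SmedASXL_002407 was not tested.

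At the other end were transcripts strongly read in few cells. SmedASXL_018523 was read in 20 kept cells (25.3%, 16.2 to 36.4), with a median of 379 reads in them and up to 4969 in 1 cell. SmedASXL_017609 was read in 17 with a median of 339 reads, and SmedASXL_016663 in 5 with a median of 427. SmedASXL_007831 was read in 7 kept cells, and 1 of these gave 57.2% of its pooled reads. For the median transcript of the 138, a single cell gave 44.8% of the pooled reads, close to the 43.9% over the other unnamed transcripts, so pooled levels rest on few cells.

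The pooled cells give a second reading of the same gate, made with another chemistry. Ribosomal RNA took 87.4% of the pooled reads, so levels were compared with ribosomal RNA left out of both totals. On that scale the 138 summed to 27708 CPM in the pooled cells, against 34481 in RNA-low bulk, 11203 in G1 bulk, 7940 in S/G2/M bulk and 12124 in PM bulk. The rule capped the G1, S/G2/M and PM bulk levels of these transcripts. Their gap to the pooled cells is therefore partly set by the choice and is no separate finding. Without SmedASXL_074105 the sums were 27697 in the pooled cells and 31211 in RNA-low bulk. The other 3060 unnamed transcripts summed to 326602 CPM in the pooled cells and 688346 in RNA-low bulk. The ratio of pooled cells to RNA-low bulk was therefore 0.804 for the 138 and 0.474 for the others.

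The same held at each bulk level. At 50 to 100 CPM the median ratio of pooled cells to RNA-low bulk was 0.857 for this set and 0.359 for the other unnamed transcripts. At 100 to 300 CPM it was 0.697 against 0.419, and at 300 CPM or more 0.662 against 0.256. Of the 138, 51 (37.0%) were at or above their RNA-low bulk level in the pooled cells, where 15.7% of all 3198 passed. TruSeq and Smart-seq2 libraries differ in chemistry, and its part in these counts was not tested.

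**Figure D4:**
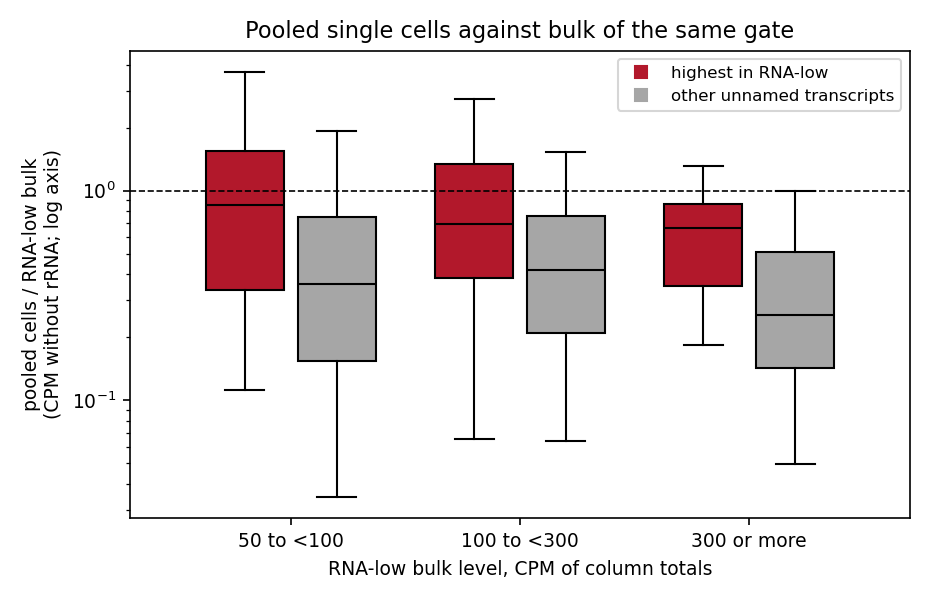
Ratio of the level in the pooled kept cells to that in RNA-low bulk, both in CPM without ribosomal RNA on a log axis, for the 138 transcripts (red) and the other unnamed transcripts (grey) in bands of RNA-low bulk level; boxes are quartiles with the median, and whiskers run from the 5th to the 95th percentile. The median of the 138 lies above that of the others in each band, at 0.857 against 0.359 in the lowest and 0.662 against 0.256 in the highest.

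SmedASXL_014883 was the highest in the pooled cells too, at 2739 CPM there against 3876 in RNA-low bulk. SmedASXL_006919 stood at 1639 CPM in the pooled cells against 1683 in bulk. SmedASXL_017609 stood higher in the pooled cells than in bulk, at 1052 against 342 CPM, as did SmedASXL_018523 at 1034 against 534 CPM. SmedASXL_007925 went the other way, at 243 CPM in the pooled cells against 1322 in bulk, as did SmedASXL_018639 at 151 against 682 CPM. By class, the 44 transcripts 10-fold or more over S/G2/M had a median ratio of 1.00, the 43 at 5- to under 10-fold 0.628 and the 51 at 2- to under 5-fold 0.616.

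A kept cell had reads of a median of 24 of the 138 transcripts, from 5 to 61, and they took a median of 2.09% of its reads other than ribosomal RNA, from 0.257% to 7.79%. Every kept cell had some of them. The 17 cells left out had reads of a median of 8, from 2 to 9, and 0.256% of such reads. As a share of the transcripts detected in a cell the order was the other way, with a median of 1.83% in the 17 and 1.23% in kept cells. The number read in a cell went with the number of transcripts detected in it, with Pearson's r of 0.60 and Spearman's rho of 0.54 across the 79 kept cells of this 1 sample. The cell with 61 was also the one with most detected transcripts, 7946.

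**Figure D5:**
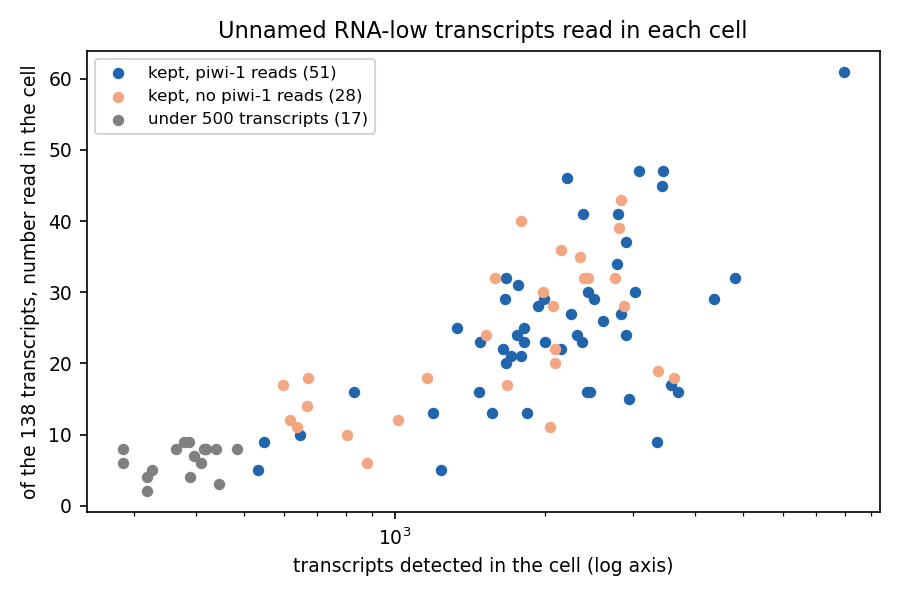
Number of the 138 transcripts with reads in each of the 96 RNA-low cells (vertical axis) against the number of all transcripts detected in that cell on a log axis. Kept cells with piwi-1 reads (blue, median 24) and without (orange, median 21) overlap over most of the range, and the 17 cells under 500 transcripts (grey) had 2 to 9.

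Cells with and without reads of piwi-1, the neoblast PIWI gene, differed little in the number of these transcripts. The 51 kept cells with piwi-1 reads had a median of 24, from 5 to 61, at a median of 2213 detected transcripts. The 28 kept cells without had a median of 21, from 6 to 43, at 2013 detected transcripts. The share of reads other than ribosomal RNA was a median of 1.96% with piwi-1 and 2.62% without, and the order turned when 5 reads were asked for, with 2.22% in 37 cells with piwi-1 and 1.93% in the 42 others. Of the 24 transcripts read in at least 20 kept cells, the share of these cells with piwi-1 reads ran from 54.8% for SmedASXL_015663 (17 of 31, interval 36.0 to 72.7) to 75.0% for SmedASXL_001571 and SmedASXL_018523 (15 of 20 each, 50.9 to 91.3). Among all kept cells 51 of 79 had piwi-1 reads. With cells of 1 sample the difference was not tested, and the intervals are too wide to order the transcripts.

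A few transcripts were read in the same cells. Over the 86 read in at least 8 kept cells, 3655 pairs were compared by the correlation of their presence, phi. The median was 0.06, and 9 pairs reached 0.5. Pairs of other unnamed transcripts were not compared. The number read in a cell also went with the transcripts detected in it, so these counts only describe the set. The pairs named here were picked for their phi. SmedASXL_016107 and SmedASXL_016108, whose numbers are consecutive, had a phi of 0.92, and all 14 cells with the second were among the 16 with the first. Their bulk levels ran in parallel, at 146 and 86.0 CPM in RNA-low, 59.8 and 32.7 in G1, 39.5 and 20.6 in S/G2/M, and 50.0 and 26.6 in PM.

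SmedASXL_016037 and SmedASXL_016038, the other consecutive pair, had a phi of 0.82 and shared 52 cells of 55 each. They stood at 609 and 960 CPM in RNA-low, 274 and 418 in G1, 282 and 427 in S/G2/M, and 232 and 365 in PM. What each pair stands for, for example 1 transcript entered under separate identifiers or near copies between which reads were divided, was not tested, since no sequences were at hand. The strongest pair without consecutive numbers was SmedASXL_002853 and SmedASXL_018956, with 9 shared cells of 12 and 10 and a phi of 0.79. SmedASXL_017743 and SmedASXL_018523, both among the abundant transcripts low in S/G2/M at 39.9 and 1.79 CPM there, shared 12 cells of 17 and 20, with a phi of 0.55.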

How the data were processed

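The authors deposited raw read counts for each transcript, in whole numbers, in a bulk and a single-cell table. Per the submitters' processing notes, bcl2fastq 1.8.3 and Bowtie2 were used. How reads were counted and filtered, and on which transcript set, is not given in the sources used here. Transcripts of nearly the same sequence may have split reads. G0, a heading in the bulk table, was read as RNA-low, since the names of the single RNA-low cells start with G0 and the remaining bulk headings name their gates. The transcripts, markers and thresholds were chosen with earlier results of these data known. Levels are CPM of column totals. Fold intervals are exact 95% conditional binomial intervals, and shares of cells have exact Clopper-Pearson intervals (SciPy 1.17.1). A level of 0 was set to 3 estimated fragments for a bound. Transcripts were named by rule: the 4 highest in RNA-low, the 4 of largest excess, the 4 in most cells, the 4 highest in pooled cells, the 2 of largest excess for each other gate, and the 2 nearest each threshold. Any other identifier was chosen after its values were seen. Named genes past the same thresholds are all given. The rule code was checked on simulated counts. Alternatives used edgeR 4.0.16 (TMM) and DESeq2 1.42.0 (median of ratios).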

Additional observations from a re-analysis of the deposited data

How the results depend on the processing

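The number of transcripts passing the rule was 138 with TMM (118 of the main 138 among them), 117 with median of ratios (102) and 129 with totals without ribosomal RNA (111). Relative to column totals these scalings moved ratios of RNA-low over S/G2/M by -0.23, -0.41 and -0.09 on the log2 scale, and of RNA-low over PM by -0.06, -0.10 and -0.36. Thresholds mattered more: a minimum of 20 CPM gave 273, 100 CPM gave 59, no minimum beyond 10 reads gave 6670, and 1.5-, 3- and 4-fold gave 399, 31 and 10. Keeping rows read in nearly all cells gave 151. Of the 3 other gates, G1 was the highest for 59 of the 138 without ribosomal RNA in the totals, in place of 99. S/G2/M was the highest for 29 with median of ratios, in place of 14. PM was the highest for 40 with TMM, 39 with median of ratios and 68 without ribosomal RNA, in place of 25. With median of ratios, G1 was at least 2-fold over S/G2/M for 52, in place of 80. S/G2/M stayed the lowest for 95 to 114 of the 138 under these scalings. The summed pooled level was 3501 CPM of all reads, with a median of 2692 over cells, 18636 without 28S ribosomal RNA, 27708 without 28S and 16S, and 26064 on that scale without the cell with most of these reads; the last 2 settings were chosen after seeing the data. The median share of reads other than ribosomal RNA in cells with piwi-1 minus that in cells without was -0.66 percentage points, and 0.29 when 5 reads were needed to call piwi-1; the cause was not tested. The number of transcripts with an interval above 2-fold over each gate was 124 on reads and 85 on estimated fragments, with no allowance for the choice by ratio. Median detection was 13.3% of the kept cells and 11.5% of all 96. It was 14.7% of the 68 cells with at least 1000 transcripts, and 10.1% of kept cells when 5 reads were asked for. No paired analysis was possible because each gate has 1 bulk library. A single library per gate, with 1820715 estimated fragments in PM, limits every ratio.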
